A study of Mus musculus with 12 samples.

Results

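The 600 reporter elements described here each carry 1 changed base at the inner end of a homeodomain core, next to the spacer of a dimeric homeodomain site. They are the changes at positions 5 and 9 of a 13-base window that was mutated base by base in 100 genomic elements of 100 bp, with 3 new bases at each position and none missing. They make up 600 of 13717 modified elements in a library of 14987 elements, and 600 of the 3473 single-base changes of the dimer windows. Each window was read on the strand whose positions 2 to 7 match T, A, A, T, C, C at most places. Position 5 is then the last base of the first core (positions 2 to 5), and positions 6 to 8 are the spacer. Position 9 is the last base of the second core (positions 9 to 12) when that core is read on the opposite strand. A change is written as the unmodified base, its window position counted from 1 at the 5′ end of the window, and the new base, as in T5G.

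Homeodomain proteins contact DNA through a core that usually reads TAAT, and the bases that follow the core separate the preferences of protein classes. CRX and OTX2, paired-type homeodomain proteins that control photoreceptor genes, favour TAAT followed by CC, and TAAG is a known variant of that core. Paired-type homeodomains can also bind as dimers to inverted cores with a short spacer between them. In such an inverted repeat, positions 5 and 9 are the same base of the facing cores, so a change at one has a mirrored, complementary change at the other.

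The first core read TAAT in 75 windows and TAAG in 25. The second core read CTTA in 60 windows, CTTT in 21, CTTC in 8, ATTA in 6 and CTTG in 5, where CTTA and ATTA are TAAG and TAAT on the opposite strand. Position 5 was therefore T in 75 windows and G in 25, and position 9 was C in 94 and A in 6. The commonest spacer was CCT, in 45 windows, and 10 windows matched equally well on both strands and were kept as written. The 100 windows hold 78 different sequences. The element at chr8:41511143-41511242 (mm9, taking each element as the middle of its longer named region, which the files do not state) shows the whole set, because its mean effect over new bases and promoters was the lowest of all elements at both positions. Its window lies at chr8:41511169-41511181 on the minus strand, and the changed base is in capitals.

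unmodified: ctaagcttcttag
G5A: ctaaActtcttag
G5C: ctaaCcttcttag
G5T: ctaaTcttcttag
C9A: ctaagcttAttag
C9G: ctaagcttGttag
C9T: ctaagcttTttag

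G5T turns the first core from TAAG to TAAT, and C9A does the same to the second core on the opposite strand. G5A and C9T leave TAAA in their cores, and G5C and C9G leave TAAC. In windows with a TAAT first core the corresponding changes are T5G (to TAAG), T5A (to TAAA) and T5C (to TAAC). The 6 windows with an ATTA second core give A9C (to TAAG), A9T (to TAAA) and A9G (to TAAC). In the 34 windows whose second core reads CTTT, CTTC or CTTG, neither the old nor the new second core of C9A is TAAT or TAAG, and C9G and C9T leave cores other than TAAC and TAAA. T5G, G5T, A9C, and C9A in the 60 CTTA windows, are called TAAT/TAAG exchanges below, a grouping made after the values were seen.

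The library was tested in intact retinas of WT CD1 mouse pups taken at postnatal day 0. Retinas were electroporated with 30 µg of the library and 30 µg of a CAG-GFP plasmid and cultured for 8 days. Every element stood upstream of either the rhodopsin promoter (pRho) or the Crx promoter (pCrx), which drove DsRed with an element-specific barcode of 13 bp. For each promoter, 3 pools of 5 retinas gave 1 DNA and 1 cDNA library each, 12 libraries in all. Barcode counts totalled 31198771 to 36500857 per DNA library and 24726849 to 31842705 per cDNA library. Each of the 600 elements had 6 or 7 barcodes (404 had 7), and the lowest summed count of any of them or its unmodified element was 86 in a DNA library and 39 in a cDNA library. Activity is the log2 ratio of cDNA to DNA after scaling the libraries, and an effect is the activity of a modified element minus that of its unmodified element. The 100 unmodified elements ranged from −2.97 to 1.71 in activity on pRho (median 0.37) and from −3.17 to 2.71 on pCrx (median 0.56).

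Changes at position 5 lowered activity on average. The mean effect of the 300 changes was −0.26, −0.29 and −0.28 in the 3 pRho pools and −0.35, −0.41 and −0.40 in the 3 pCrx pools. The spread over changes, with an SD of 0.57 on pRho and 0.64 on pCrx, was far wider than the spread over pools. Position 9 gave −0.20, −0.23 and −0.22 on pRho (SD over changes 0.48) and −0.32, −0.35 and −0.34 on pCrx (SD 0.54). Every pool was below 0 at both positions, and the pCrx pools were all lower than the pRho pools.

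Counts of single changes past edgeR's test (adjusted p under 0.05 over all modified elements) were set beside those of the library. At position 5, 149 of 300 fell on pRho, or 49.7%, against 45.9% of all modified elements, and 46 rose, or 15.3%, against 17.4%. On pCrx 163 fell, or 54.3%, against 46.2%, and 26 rose, or 8.67%, against 11.7%. At position 9, pRho had 142 falls (47.3%) and 37 rises (12.3%) among 300 changes, and pCrx had 148 falls (49.3%) and 19 rises (6.33%). Without pool 1 of pRho, 29 rose at position 5 and 22 at position 9 on that promoter. The median effect was −0.22 on pRho and −0.41 on pCrx at position 5 and −0.17 and −0.31 at position 9, beside −0.18 and −0.26 over all modified elements. A change at position 5 fell on both promoters in 113 cases (37.7%) and a change at position 9 in 86 (28.7%), beside 30.8% of all modified elements, and 14 (4.67%) and 10 (3.33%) rose on both, beside 5.91%. With barcodes as the units (limma), fewer single changes passed. At position 5 there were 83 falls and 8 rises on pRho (24.7% and 5.85% over all modified elements) and 110 falls and 13 rises on pCrx (28.7% and 4.76%). At position 9 the counts were 52 and 10 on pRho and 84 and 7 on pCrx.

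The effects at position 5 differed with the new base. T5A had a mean effect of −0.35, −0.39 and −0.36 in the pRho pools and −0.49, −0.55 and −0.50 in the pCrx pools. T5C had −0.38, −0.40 and −0.42 on pRho and −0.54, −0.56 and −0.52 on pCrx. T5G, which makes a TAAG core, had −0.09, −0.07 and −0.10 on pRho and −0.07, −0.08 and −0.10 on pCrx. The T5G pools did not overlap those of T5A or T5C on either promoter. As a level, T5A kept 77.5% of the unmodified activity on pRho and 70.2% on pCrx, T5C kept 75.7% and 68.8%, and T5G kept 94.2% and 94.5% (geometric means over 75 elements). T5A fell in 39 of 75 elements on pRho (52.0%) and 54 on pCrx (72.0%), and T5C in 44 (58.7%) and 54 (72.0%). T5G fell in 24 (32.0%) and 22 (29.3%), where 45.9% and 46.2% of all modified elements fell. T5G rose in 13 (17.3%) and 8 (10.7%), near the 17.4% and 11.7% of all modified elements.

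The 25 windows with a TAAG first core showed the same order. G5A had a mean effect of −0.31, −0.41 and −0.32 on pRho and −0.47, −0.51 and −0.60 on pCrx. G5C had −0.37, −0.47 and −0.42 on pRho and −0.61, −0.80 and −0.75 on pCrx. G5T, which makes a TAAT core, had −0.01, −0.06 and 0.01 on pRho and 0.11, 0.02 and −0.08 on pCrx, so its pools lay on both sides of 0 on either promoter. G5A fell in 18 of 25 elements on pRho (72.0%) and 14 on pCrx (56.0%), and G5C in 20 (80.0%) and 18 (72.0%). G5T fell in 4 and 1 and rose in 5 and 3.

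At position 9 the spread between the mean effects of new bases was smaller in the 94 windows with C there. C9A, which turns the opposite-strand core from TAAG to TAAT where the core is CTTA, had a mean effect of −0.14, −0.15 and −0.14 on pRho and −0.19, −0.21 and −0.21 on pCrx. C9G had −0.25, −0.29 and −0.24 on pRho and −0.40, −0.45 and −0.43 on pCrx. C9T had −0.22, −0.27 and −0.28 on pRho and −0.37, −0.43 and −0.42 on pCrx. C9A lay above both in every pool, and C9G and C9T overlapped on both promoters. In the 60 CTTA windows, where C9A is an exchange, it had −0.14, −0.17 and −0.14 on pRho and −0.24, −0.25 and −0.27 on pCrx, and in the other 34 it had −0.12, −0.12 and −0.14 on pRho and −0.12, −0.13 and −0.10 on pCrx. C9A fell in 34 of 94 elements on pRho (36.2%) and 30 on pCrx (31.9%), and C9G in 55 (58.5%) on either promoter. C9T fell in 46 (48.9%) and 57 (60.6%), where 45.9% and 46.2% of all modified elements fell. In the 6 windows with an ATTA second core, A9C had 0.04, 0.04 and 0.02 on pRho and 0.11, 0.18 and 0.21 on pCrx. A9G gave −0.29, −0.27 and −0.32 on pRho and −0.41, −0.44 and −0.62 on pCrx, and A9T gave −0.33, −0.22 and −0.33 on pRho and −0.42, −0.38 and −0.28 on pCrx.

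The gap between an exchange and the other new bases was taken within elements in each of the 6 pools and tested with a two-sided exact sign-flip permutation test, whose smallest p with 6 pools is 0.0312. All pools read the same elements and barcodes, so this p measures only the spread between pools of retinas. T5G exceeded T5A and T5C by 0.30 on pRho and 0.44 on pCrx (log2, 75 elements). G5T exceeded G5A and G5C by 0.36 and 0.64 (25 elements), C9A exceeded C9G and C9T by 0.15 and 0.24 in CTTA windows (60 elements), and A9C exceeded A9G and A9T by 0.33 and 0.59 (6 elements). Each of these gaps was above 0 in 6 of 6 pools (exact p = 0.0312, adjusted p = 0.0379 over 17 contrasts). In the 34 windows with CTTT, CTTC or CTTG, where C9A is no exchange, it also exceeded C9G and C9T, by 0.06 on pRho and 0.17 on pCrx, above 0 in 6 of 6 pools with the same p. The C9A gap was larger in the CTTA windows by 0.10 on pRho and 0.07 on pCrx, in 6 of 6 pools (exact p = 0.0312, adjusted p = 0.0379), and as a median over elements by 0.04 over the 6 pools (exact p = 0.219). The gap was wider on pCrx by 0.14 for T5G, 0.28 for G5T, 0.09 for C9A in CTTA windows and 0.26 for A9C, each with exact p = 0.1, the smallest that 3 pools against 3 allow. The gaps between non-exchange bases were smaller in size. T5A minus T5C was 0.03 on both promoters and G5A minus G5C was 0.08 on pRho and 0.19 on pCrx, both above 0 in 6 of 6 pools (exact p = 0.0312, adjusted p = 0.0379). C9G minus C9T was −0.01 and −0.02 (exact p = 0.25, adjusted p = 0.283).

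Direct edgeR tests between 2 modified elements that differ only in the new base do not involve the unmodified element. Over all 6637 such pairs at single positions of both single-base sets, 46.9% passed on pRho and 35.7% on pCrx. At position 5, 191 of 300 pairs (63.7%) passed on pRho and 180 (60.0%) on pCrx, and at position 9, 159 (53.0%) and 152 (50.7%). T5G was above T5A in 43 of 75 elements and below it in 8 on pRho, and above in 48 and below in 6 on pCrx. T5G against T5C gave 41 and 9 on pRho and 48 and 6 on pCrx. G5T was above G5A in 17 of 25 elements and below in 5 on pRho (16 and 3 on pCrx), and above G5C in 19 and below in 2 (20 and 2 on pCrx). C9A was above C9G in 38 of 94 elements and below in 17 on pRho (39 and 12 on pCrx), and above C9T in 36 and below in 18 (42 and 15 on pCrx). In the 60 CTTA windows C9A was above C9G in 26 and below in 8 on pRho (26 and 7 on pCrx), and above C9T in 24 and below in 12 (27 and 8 on pCrx). Among pairs without an exchange base, T5A against T5C and C9G against C9T were more evenly split. T5A was above T5C in 24 and below in 15 on pRho and 12 and 8 on pCrx. G5A was above G5C in 5 of 25 elements and below in 3 on pRho, but above in 9 and below in 2 on pCrx. C9G was above C9T in 18 and below in 24 on pRho, and above in 15 and below in 21 on pCrx. In the barcode-level test, 58 pairs at position 5 and 41 at position 9 passed on pRho, against 77 and 49 on pCrx. The share over all 6637 pairs was not counted for that test.

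The element at chr2:125495585-125495684 had one of the widest gaps between new bases at position 5, in the more frequent direction. In its window at chr2:125495647-125495659 on the plus strand, T5G raised and T5C lowered activity on pRho, and the 2 sequences differ only at position 5.

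T5G: ataaGctgcttag
T5C: ataaCctgcttag

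T5G gave 0.83, 1.00 and 0.80 in the pRho pools and 0.77, 0.89 and 0.87 in the pCrx pools. T5C gave −1.34, −1.29 and −1.14 on pRho and −0.17, 0.00 and −0.20 on pCrx. The direct difference was 2.13 ± 0.10 on pRho (log2 ± SE, edgeR adjusted p = 8.7e-11) and 0.97 ± 0.12 on pCrx (adjusted p = 5.5e-07). Flank changes of this element themselves ranged from −0.97 to 0.54 on pRho (median −0.08) and from −0.78 to 0.34 on pCrx (median −0.11). The other widest gap at position 5 ran in the opposite direction. At chr18:62863827-62863926, T5C gave 2.16, 2.32 and 2.16 on pRho while T5G gave −0.26, −0.19 and −0.09, a direct T5G minus T5C difference of −2.39 ± 0.08 (edgeR adjusted p = 4.3e-12). T5A at that site gave −0.13, −0.28 and 0.06 on pRho, so the rise was seen with 1 of the 3 new bases. This T5C was also the largest rise of any change at the 2 positions on pRho.

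Position 5 and position 9 were compared within elements. The mean effect at position 5 was lower by 0.06 on pRho and 0.05 on pCrx over all 100 elements, in 6 of 6 pools (exact p = 0.0312, adjusted p = 0.0312 over 9 contrasts). The gap differed with the first core. In the 69 windows with a TAAT first core and C at position 9, T5A and T5C averaged −0.40 on pRho and −0.54 on pCrx, and C9G and C9T averaged −0.21 and −0.35, a gap of −0.19 on either promoter (exact p = 0.0312, adjusted p = 0.0379). In the 41 of these windows with a CTTA second core, so that the same cores result in both arms, the gap was −0.05 on pRho and −0.10 on pCrx, below 0 in 6 of 6 pools with the same p. As a median over elements (−0.09 over the 6 pools, exact p = 0.0625) and as a mean over barcodes (−0.04, exact p = 0.125) this smaller gap did not pass. In the 25 windows with a TAAG first core, G5A and G5C averaged −0.38 and −0.62, and C9G and C9T averaged −0.39 and −0.60, a gap of 0.01 on pRho and −0.03 on pCrx that had 4 pools below 0 and 2 above (exact p = 0.469). The difference between these gaps was −0.20 on pRho and −0.17 on pCrx, below 0 in 6 of 6 pools (exact p = 0.0312, adjusted p = 0.0379). Over CTTA windows alone, 41 and 19 of them, it was −0.06 and −0.10, also below 0 in 6 of 6 pools, and as a median over elements −0.02 over the 6 pools (exact p = 0.562). Over the 6 windows that read TAAT and ATTA, position 5 minus position 9 was 0.09 over the 6 pools. The orientation rule itself places the better TAATCC match first.

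Mirrored changes put complementary new bases at the facing positions 5 and 9, and 231 such pairs were tested directly with edgeR. Position 5 was the lower one in 78 pairs on pRho (33.8%) and in 59 on pCrx (25.5%), beside 38.0% and 27.0% over all 1342 mirrored pairs of the windows in which the earlier position was lower. Position 9 was lower in 51 pairs on pRho (22.1%) and 40 on pCrx (17.3%), beside 21.0% and 18.0%. Both changes leave the same core only where the second core is CTTA or ATTA. In these 157 pairs position 5 was lower in 40 and position 9 in 37 on pRho, and each in 32 on pCrx. In the 74 pairs with CTTT, CTTC or CTTG, the counts were 38 and 14 on pRho and 27 and 8 on pCrx.

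Among TAAT windows with a CTTA second core, T5C against C9G, both of which leave TAAC there, had position 5 lower in 19 of 41 pairs and position 9 lower in 9 on pRho, and 11 and 7 on pCrx. T5A against C9T, both of which leave TAAA there, gave 10 and 7 on pRho and 13 and 5 on pCrx. In the 28 TAAT windows with CTTT, CTTC or CTTG the same pairs gave 17 and 2, then 17 and 4, on pRho. In TAAG windows with a CTTA second core, G5C against C9G gave 4 and 4 of 19 on pRho and 2 and 4 on pCrx, and G5A against C9T gave 5 and 5, then 3 and 6. G5T against C9A, both of which make TAAT in these windows, had position 5 lower in 1 pair on pRho and in 0 on pCrx, and position 9 lower in 5 and 6 of 19. Over all 231 pairs, the count with position 9 lower was 31 on pRho without pool 1 and 25 on pCrx without pool 3.

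Both positions were then set against the other positions of the same windows. Effects at position 5 were less negative than those at the outer bases of the first core (positions 2 to 4) by 0.12 on pRho and 0.16 on pCrx, and more negative than those at the flank base at position 1 by 0.29 and 0.42. Their gap to the spacer (positions 6 to 8) was 0.01 on pRho and 0.03 on pCrx. Effects at position 9 were less negative than those at the outer bases of the second core (positions 10 to 12) by 0.02 and 0.06 and those of the spacer by 0.07 and 0.07, and more negative than those at position 13 by 0.17 and 0.28. All of these had the same sign in 6 of 6 pools (exact p = 0.0312, adjusted p = 0.0312), including gaps of a few hundredths of a log2 unit. The values for the spacer and the outer second core are means over unlike positions. In the spacer, mean effects were −0.41 on pRho and −0.53 on pCrx at position 6 (272 changes). They were −0.17 and −0.21 at position 7 (158 changes) and −0.15 and −0.35 at position 8 (126 changes). In the outer second core, position 12 had −0.14 and −0.24, less negative than position 9, while positions 10 and 11 were more negative.

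The monomer set is another group of 100 elements, whose windows were mutated the same way around a single core. Its 300 changes at position 5 had a mean effect of −0.22 on pRho and −0.37 on pCrx, which put the dimer windows lower by 0.06 and 0.02. At position 9, where the monomer windows have no designed second core, the mean effect was −0.07 on pRho and −0.12 on pCrx, and the dimer windows were lower by 0.15 and 0.22. Both comparisons had the same sign in 6 of 6 pools (exact p = 0.0312, adjusted p = 0.0312), and they set different elements against each other.

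The lowest effects at position 5 came from elements with several falling changes. In the chr8 element printed above, unmodified activity was 1.40, 1.61 and 1.48 on pRho and 1.62, 1.75 and 1.80 on pCrx. G5A gave effects of −1.54, −2.04 and −1.85 on pRho and −1.89, −2.06 and −1.84 on pCrx (fit −1.81 ± 0.10 and −1.93 ± 0.12, edgeR adjusted p = 1.5e-14 and 8.9e-11), which left 28.5% and 26.3% of the unmodified activity. C9T gave −1.63, −2.10 and −1.91 on pRho and −1.89, −1.66 and −1.68 on pCrx and left 27.2% and 29.9%. G5T gave 0.05, −0.32 and −0.11 on pRho and 0.08, −0.03 and −0.24 on pCrx, on both sides of 0. C9A, the other exchange, gave −0.39, −0.32 and −0.53 on pRho and −0.61, −0.62 and −0.56 on pCrx. Of the 36 single-base changes of this window, 33 fell on pRho and 32 on pCrx, and the flank changes had medians of −0.23 and −0.31.

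The 2 largest falls on pRho were T5C changes in windows that read TAAT, CCT and CTTT. They are printed because they differ from each other in 2 outer bases only.

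chr6:39758758-39758770, plus strand, T5C: ataaCcctcttta
chr13:44327083-44327095, plus strand, T5C: ttaaCcctctttc

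The first, in the element chr6:39758713-39758812, gave −2.04, −1.92 and −2.06 on pRho and −0.14, −0.78 and −0.68 on pCrx. It left 24.9% of the unmodified activity on pRho and 69.0% on pCrx. The second, in chr13:44327013-44327112, gave −1.90, −2.24 and −1.87 on pRho and −0.94, −0.96 and −1.15 on pCrx, leaving 49.4% of the unmodified level on pCrx. The exchange T5G in the same windows gave −0.73, −0.60 and −0.56 on pRho at the chr6 site and −0.93, −0.49 and −1.03 at the chr13 site. Both T5G changes fell on both promoters, and in both windows T5G lay above T5A and T5C in all pRho pools.

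On pCrx the largest falls at position 5 were T5C and T5A in chr10:80869522-80869621, whose window at chr10:80869596-80869608 on the minus strand reads ctaatccacttag. T5C gave −2.12, −2.12 and −2.01 on pCrx but −0.56, −0.51 and −0.59 on pRho, and T5A gave −1.85, −2.10 and −2.18 on pCrx and −0.55, −0.69 and −0.38 on pRho. The effect on pCrx minus that on pRho was −1.53 for T5C and −1.50 for T5A (edgeR adjusted p = 2.4e-10 and 1.5e-09), with unmodified activity of 1.70, 1.71 and 1.71 on pRho and 1.55, 1.70 and 1.67 on pCrx. Besides those of the chr8 element, the largest falls at position 9 that also passed with barcodes as the units were C9T of chr10:84423426-84423525 and C9G of chr1:44648696-44648795 on pRho, and C9T of chr4:40800262-40800361 and C9G of chr12:17150155-17150254 on pCrx. The first of these gave −1.92, −1.52 and −1.73 on pRho and −0.52, −0.52 and −0.33 on pCrx. The C9G of chr1 gave −1.53, −1.28 and −1.51 on pRho and −1.09, −1.34 and −1.17 on pCrx. The C9G of chr12 gave −1.93, −1.44 and −1.25 on pCrx and −0.56, −0.50 and −0.28 on pRho.

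The 6 windows with a TAAT core in each arm gave the widest gap between new bases at position 9. In the element chr1:182368850-182368949, the window at chr1:182368894-182368906 on the plus strand is printed because 1 change there turned the second core to TAAG and another to TAAC.

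unmodified: ctaatctgattag
A9C: ctaatctgCttag
A9G: ctaatctgGttag

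A9C gave 0.25, 0.42 and 0.61 on pCrx and 0.11, −0.13 and 0.17 on pRho. A9G gave −1.48, −1.51 and −1.40 on pCrx and −0.30, −0.23 and −0.38 on pRho. Their direct difference was 1.89 ± 0.11 on pCrx (edgeR adjusted p = 5.4e-13) and 0.35 ± 0.08 on pRho (adjusted p = 0.0018). T5G, the exchange on the first core, gave 0.42, 0.16 and 0.42 on pRho and 0.01, 0.40 and 0.60 on pCrx, and T5C gave −0.28, −0.70 and −0.19 on pRho and −1.02, −0.96 and −0.77 on pCrx. Both exchanges were above the other new bases on both promoters in the fitted values of this element. One of the 6 windows, ctaatccgattaa at chr2:131957452-131957464 (plus strand), holds the full inverted repeat of TAAT, CCG and ATTA. There A9G gave −1.29, −1.40 and −1.26 on pRho, T5A gave −1.67, −1.03 and −0.86, and T5G gave −0.30, 0.13 and −0.20. None of its 6 changes passed with barcodes as the units on either promoter.

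The same window sequence gave opposite effects in different elements. The largest number of elements sharing a window was 4, and this held for 2 windows, the first of which is shown with its C9T change.

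unmodified: ttaatcctctttg
C9T: ttaatcctTtttg

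It occurs at chr4:40800279-40800291 (minus strand), chr7:82441935-82441947 (minus), chr4:53646744-53646756 (minus) and chr1:134310766-134310778 (plus), and the 4 elements differ elsewhere. Their unmodified activities were 1.65, 1.66 and 1.73 on pRho and 1.19, 1.15 and 1.06 on pCrx in the first. They were −0.56, −0.28 and −0.47 on pRho and 0.62, 0.76 and 1.15 on pCrx in the chr7 element. The remaining elements were low on both promoters, at −3.01, −2.87 and −3.03 on pRho and −3.07, −2.83 and −2.34 on pCrx for the one at chr4:53646714-53646813, and at −2.25, −2.11 and −2.20 and −3.12, −3.60 and −2.90 for the one at chr1:134310730-134310829.

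C9T gave −1.25, −1.23 and −1.31 on pRho and −1.83, −1.88 and −1.81 on pCrx in the most active of these elements. In chr7:82441873-82441972 the same change gave 1.52, 1.42 and 1.15 on pRho and 0.99, 0.93 and 0.58 on pCrx. In chr4:53646714-53646813 it gave 0.15, 0.33 and 0.21 on pRho and 2.23, 1.80 and 1.52 on pCrx. In chr1:134310730-134310829 it gave 0.63, 0.22 and 0.19 on pRho and 1.30, 1.74 and 1.21 on pCrx. It was thus below 0 in every pool of the most active element and above 0 in every pool of the other 3. On pCrx the fall and the 3 rises passed both edgeR's test and the test with barcodes as the units. On pRho the rise passed both in the chr7 element, only edgeR's in chr1 (edgeR adjusted p = 0.0085, limma adjusted p = 0.178) and neither in chr4:53646714-53646813 (edgeR adjusted p = 0.099). The elements were singled out by sequence and the difference between them was not tested. C9A, which is no exchange in this window with its CTTT second core, gave fitted effects of −0.24, −0.42, 0.03 and 0.06 on pRho and −0.34, −0.31, 1.16 and 0.51 on pCrx in the same order.

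In the chr7 element C9A lay below C9T by 1.79 ± 0.12 on pRho and 1.14 ± 0.13 on pCrx (edgeR adjusted p = 5.9e-09 and 6.7e-08), the reverse of the usual order. That element also held the widest mirrored gap with position 5 lower, T5C minus C9G, at −2.24 ± 0.17 on pCrx (edgeR adjusted p = 6.6e-15). Of its 35 window changes, 15 rose and 5 fell on pRho, and 11 rose and 9 fell on pCrx. Its flank changes ranged from −0.31 to 0.54 on pRho. On pCrx they ranged from −0.71 to 0.93, which spans the fitted C9T effect of 0.83 there. In chr4:53646714-53646813 all 6 changes rose on pCrx, by 1.16 to 2.24, and 33 of 35 changes over the whole window rose there. Its flank changes at positions 1 and 13 also lay above the unmodified element on pCrx, from 0.30 to 1.29, so part of each rise was shared by changes outside both cores. Its unmodified element had 6 barcodes and 972 cDNA counts over the 3 pCrx pools. In chr1:134310730-134310829, 31 of 35 window changes rose on pCrx and the flank changes ranged from −0.08 to 1.36.

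In the second shared window, ctaatcctcttag, fitted effects of the 6 changes ran from −1.25 to 0.20 on pCrx, a smaller range than the −1.84 to 2.24 of the first, and from −1.19 to 0.65 on pRho. In chr4:135789349-135789448, which had unmodified activity of 1.46, 1.36 and 1.71 on pRho, T5C gave −1.12, −1.14 and −1.32 on pRho and T5G gave 0.03, 0.00 and −0.08. In chr2:178883023-178883122, with −1.19, −1.13 and −1.17 on pRho but 1.35, 1.38 and 1.38 on pCrx, T5C gave −0.60, −0.76 and −0.66 on pRho and −1.26, −1.33 and −1.17 on pCrx. In chr19:38805436-38805535, with −2.60, −1.92 and −2.13 on pRho, T5C gave 0.31, −0.17 and 0.12 there and T5A gave 0.99, 0.32 and 0.50. The 6 flank changes of that element had a median effect of 0.62 on pRho, from 0.20 to 1.43, as large as that of T5A (fit 0.60, limma adjusted p = 0.126 with barcodes as the units). On pCrx its T5C effect was −0.48 (edgeR adjusted p = 0.0034), and its flank changes had a median of 0.35. In chr12:5285727-5285826, T5C gave 0.11, −0.45 and 0.23 on pRho while T5G gave −0.95, −0.84 and −0.47.

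The level of the element was set beside the effects, taken from the changes at positions 1 and 13, whose barcodes are not those of the unmodified element. In the 59 elements whose flank changes averaged above 0 on pRho, the non-exchange bases at position 5 had a mean effect of −0.56 on pRho, and 93 of 118 fell and 5 rose. In the other 41 the mean was −0.14, and 28 of 82 fell and 23 rose. On pCrx the corresponding means were −0.77 in 74 elements, where 128 of 148 fell and 2 rose, and 0.09 in 26, where 12 of 52 fell and 13 rose. At position 9 the non-exchange bases had means of −0.35 and −0.13 on pRho and −0.57 and 0.02 on pCrx. There 80 of 118 fell and 11 rose on pRho, against 27 and 18 of 82. On pCrx 105 of 148 fell and 4 rose, against 13 and 8 of 52. At position 5 the falls were 78.8% and 34.1% on pRho and 86.5% and 23.1% on pCrx. Over all modified elements, at any level, 45.9% fell and 17.4% rose on pRho, and 46.2% and 11.7% on pCrx. Counts over the library were not split by level, so whether this pattern is particular to positions 5 and 9 was not tested. The exchanges at position 5 had means of −0.11 and 0.00 on pRho and −0.13 and 0.14 on pCrx. At position 9 those of the 66 CTTA and ATTA windows were −0.03 and −0.26 on pRho and −0.17 and −0.35 on pCrx. The gap between exchange and other new bases was below 0 in the less active elements (mean activity of the flank changes at or below 0 over both promoters) for C9A in CTTA windows (−0.02 over 6 pools, 21 elements, exact p = 0.812) and G5T (−0.09, 4 elements). It was 0.31 for C9A in the 39 more active CTTA windows. The gap between T5A and T5C and C9G and C9T was 0.002 in the 25 less active elements and −0.30 in the 44 more active ones.

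Across the 100 elements, the mean effect at position 5 was correlated with that at position 9 (Pearson r = 0.618 on pRho and 0.744 on pCrx). These points share the unmodified element and the libraries, and against the flank changes instead of the unmodified element r was 0.565 and 0.646. The correlation of position 5 with its neighbour in the core, position 4, was 0.835 and 0.872, and that of position 9 with position 10 was 0.674 and 0.790. Between promoters the mean effects had r = 0.355 at position 5 and 0.376 at position 9. GC content of the element and distance of the window from the promoter had r between −0.234 and 0.130 with the effects. All of these are descriptions over elements, which are not independent replicates.

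All 3 new bases fell at position 5 in 18 elements of 100 on pRho and 19 on pCrx, and at position 9 in 20 on either promoter, beside 24.2% and 26.9% of the 2132 single positions with 3 new bases in the dimer and monomer sets. All 3 rose in 1 and 2 elements at position 5 and in 2 and 3 at position 9, beside 6.33% and 3.19%. At position 5, 10 elements on pRho and 8 on pCrx had both a fall and a rise among their 3 new bases, and at position 9, 8 and 4 did, beside 6.85% and 3.33%. No new base passed the test in 6 and 10 elements at position 5 and in 13 and 21 at position 9, beside 16.1% and 22.4%.

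The effects also differed between promoters in single elements. By the edgeR interaction test over all 12 libraries, the effect was more negative on pCrx for 94 of 300 changes at position 5 (31.3%) and 88 at position 9 (29.3%), beside 26.5% of all modified elements. It was more positive on pCrx for 40 and 36, or 12.7% of all 600, beside 17.1%. With barcodes as the units, 38 and 34 were more negative and 15 and 6 more positive, and the share over all modified elements was not counted. The mean difference was −0.11 at position 5 and −0.12 at position 9.

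Some changes had opposite directions on the 2 promoters, and 3 elements with such changes are given here. In chr12:117389144-117389243 (window ctaatccacttaa at chr12:117389203-117389215, minus strand), T5C gave 1.21, 1.31 and 1.19 on pRho and −1.24, −1.18 and −0.94 on pCrx, a difference of −2.36 (edgeR adjusted p = 3e-14), with unmodified activity of −1.83, −1.91 and −1.70 on pRho and 1.28, 1.32 and 1.00 on pCrx. In chr12:109673754-109673853 (window ttaatcttcttag at chr12:109673824-109673836, plus strand), C9T gave 0.37, 0.12 and 0.47 on pRho and −1.08, −1.11 and −1.49 on pCrx. That rise on pRho passed edgeR's test (adjusted p = 0.0069) but not that with barcodes as the units (limma adjusted p = 0.0851). T5C in that window fell on both promoters, with −0.93, −1.16 and −1.15 on pRho and −0.94, −1.39 and −1.04 on pCrx, while its mirrored change C9G rose on pRho with 0.88, 0.39 and 1.13. In chr3:55592644-55592743 (window ttaatccccttag at chr3:55592718-55592730, plus strand), T5C gave 1.27, 1.15 and 0.90 on pRho and −0.90, −0.37 and −1.26 on pCrx, and C9G gave −0.63, −0.32 and −0.75 on pRho. In the chr3 element 22 of 34 window changes rose on pRho, and flank changes there ranged from −0.17 to 0.79. In each of these 3 elements the unmodified activity was below 0 in all pRho pools and above 0 in all pCrx pools. Other elements also had changes of opposite direction. T5C in chr7:82441873-82441972 had fitted effects of 0.50 on pRho and −1.35 on pCrx. C9T in chr19:38805436-38805535 had 0.43 and −0.78, and that unmodified element was below 0 in all pools of both promoters. Both rises on pRho passed edgeR's test but not that with barcodes as the units (limma adjusted p = 0.28 and 0.68). Both falls on pCrx passed both tests. Flank changes of the chr19 element had a median effect of 0.62 on pRho, above that of its C9T.

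The largest difference toward a more positive effect on pCrx belonged to T5A in chr18:65675482-65675581, with −1.44, −1.39 and −1.53 on pRho and 0.76, 1.25 and 0.39 on pCrx. Its rise on pCrx passed edgeR's test (adjusted p = 0.0019) but not that with barcodes as the units (limma adjusted p = 0.135). In that element 28 of 35 window changes rose on pCrx, and flank changes there ranged from −0.27 to 0.82 (median 0.33).

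The authors' deposited table of modified against unmodified elements lists 290 of the 300 changes at each position. At position 5 it has 88 lower and 19 higher on pRho and 103 and 11 on pCrx at an adjusted p under 0.05, and at position 9, 74 and 16 on pRho and 75 and 11 on pCrx. Over its 13176 listed elements it has 3706 lower and 1137 higher on pRho and 3622 and 620 on pCrx. Its sign matched that of the fitted effect for 276 and 273 of 290 changes at position 5 on pRho and pCrx and for 268 and 267 at position 9.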

How the data were processed

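Counts of reads per barcode, as deposited by the authors without normalization, were summed over the 6 or 7 barcodes of each element. Also deposited were element activities on a log2 scale and a table of log2 differences between modified and unmodified elements with p-values, per the file headers. Element coordinates are in mm9, the build named in the submitters' processing notes, and genes were not assigned. Each coordinate takes the element as the middle of the longer region that its deposited name gives, a placement that the files do not state and that was not checked against a genome. The counting tools were not given in the sources used here.

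For each modified element, edgeR 4.0.16 (R 4.3.3) tested the allele by molecule (cDNA against DNA) interaction with terms for each library, TMM factors and at least 10 DNA counts in every DNA library, which all 14987 elements passed. Each promoter was fitted alone, and p-values were adjusted by Benjamini-Hochberg over all 13717 pairs. The same model compared new bases with each other (6637 pairs), mirrored changes (1342 pairs) and, over 12 libraries, promoters. Errors after ± are SEs of these fits. Values per pool used a pseudocount of 0.5 counts and were compared by exact sign-flip tests over 6 pools. Barcodes were also used as units in limma 3.58.1 where both elements had at least 3 usable barcodes, which was met for 599 of 600 changes on either promoter, since read error alone leaves out differences between barcodes; median SEs over all pairs were 0.10 from reads and 0.19 from barcodes on pRho and 0.13 and 0.23 on pCrx. Intervals and p-values cover counting error and pool spread, and PCR reads are not independent molecules. The models were tested on simulated data.

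The DNA and cDNA of a number come from the same pool, per the labels' protocols; their deviations from the group means correlated at −0.0391 to 0.0504 over elements. Alternatives were RLE factors, total counts, DESeq2 1.42.0, a replicate block, no library terms, DNA minimums of 0 and 100, leaving out a barcode or a replicate, the deposited log2 values, and subsets of windows.

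Named changes were, for each position and promoter, the 3 lowest and 2 highest effects among changes past both tests with the same sign in 3 of 3 pools, and the largest promoter difference in each direction. Named elements were the 2 lowest and 2 highest mean effects and the 2 widest gaps between new bases per position, the 2 widest mirrored gaps in each direction, and the window with the full inverted repeat. The elements that share a window, the exchange grouping and the splits by first and second core were added after values were seen. The members and lists were chosen with earlier results of these data known.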

Additional observations from a re-analysis of the deposited data

Results flagged for a closer look

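These results differed between the 2 promoters by the edgeR interaction test of the same change over 12 libraries, at an adjusted p under 0.05. Each value is the log2 effect on pCrx minus that on pRho. At position 5 the effect was more negative on pCrx for 94 changes and more positive for 40 of 300, and at position 9 for 88 and 36 of 300.

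Among named changes at position 5 that were more negative on pCrx, the difference was −2.36 for T5C in chr12:117389144-117389243, −1.53 for T5C and −1.50 for T5A in chr10:80869522-80869621, and −1.48 for T5C in chr18:62863827-62863926. Those more positive on pCrx were T5A in chr18:65675482-65675581 at 2.25, T5A and T5C in chr4:53646714-53646813 at 1.70 and 1.63, T5C in chr6:39758713-39758812 at 1.47, and T5C in chr13:44327013-44327112 at 0.98.

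At position 9, the difference was −1.55 for C9T in chr12:109673754-109673853, −1.09 for C9G in chr12:17150155-17150254, −0.58 for C9T in chr4:40800262-40800361 and −0.53 for C9T in chr7:82441873-82441972. It was 1.61 for C9T and 1.55 for C9G in chr4:53646714-53646813 and 1.26 for C9T in chr10:84423426-84423525. The difference for C9T in chr7:82441873-82441972 and in chr4:40800262-40800361, and for C9G in chr4:53646714-53646813, did not pass with barcodes as the units (limma adjusted p = 0.148, 0.214 and 0.0718).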

How the results depend on the processing

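Of 112 recomputed counts of falls and rises, 103 stayed within 1.5 times the main count. With a replicate block, which pairs DNA and cDNA of a pool, 148 fell and 45 rose at position 5 on pRho and 164 and 27 on pCrx, and 140 and 37, then 146 and 19, at position 9; it moved no count by over 1.5 times.

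Barcodes as the units lowered most counts. At position 5, 83 fell and 8 rose on pRho and 13 rose on pCrx; at position 9, 52 fell and 10 rose on pRho and 84 and 7 on pCrx. Differing pairs of new bases became 58 and 77 at position 5 and 41 and 49 at position 9, mirrored pairs 37 and 14 on pRho and 22 and 9 on pCrx, and promoter differences 38 and 15 at position 5 and 34 and 6 at position 9. Leaving out each replicate gave 29 to 49 rises at position 5 and 22 to 35 at position 9 on pRho, and 31 to 48 mirrored pairs with position 9 lower on pRho and 25 to 33 on pCrx, with fewer libraries in each fit.

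The mean effect on pRho at positions 5 and 9 became −0.30 and −0.24 without the barcode of highest ratio, −0.26 and −0.20 against the changes at positions 1 and 13, and −0.23 and −0.17 as a median over elements. Without tied windows position 9 gave −0.20 on pRho and −0.31 on pCrx, and as a mean over barcodes −0.37 on pCrx. Windows reading TAAT and CTTA gave −0.22 at position 5 on pRho and −0.38 at position 9 on pCrx.

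The 6 windows reading TAAT and ATTA gave −0.06 and −0.18 on pRho and −0.17 and −0.23 on pCrx, 1 and 7 mirrored pairs with position 5 or 9 lower on pRho and 3 and 4 on pCrx, and, over 6 pools, 0.09 for position 5 minus 9, 0.18 for position 5 minus the monomer set, both reversed, and −0.08 for position 5 minus the flank (exact p = 0.0938). Position 5 minus the spacer was 0.01 as a median (exact p = 0.156) and 0.02 without the highest barcode (exact p = 0.0625), where position 5 minus the monomer set was −0.05 (exact p = 0.0938). In elements whose flank changes averaged at or below 0, G5T minus other bases was −0.09, C9A minus other bases −0.08, T5A and T5C minus C9G and C9T 0.002, and G5A and G5C minus C9G and C9T 0.22 (4 elements); the last was −0.07 as a median (exact p = 0.0312) and 0.01 as a mean over barcodes. In windows with a CTTA second core, T5A and T5C minus C9G and C9T was −0.09 as a median (exact p = 0.0625), −0.04 as a mean over barcodes (exact p = 0.125) and 0.06 in the less active elements. G5A and G5C minus C9G and C9T there, not past the test, was −0.06 as a median, −0.03 without tied windows, −0.03 in the more active elements and 0.20 in the 3 less active ones. The difference of these gaps was −0.02 as a median, −0.08 as a mean over barcodes, −0.05 without tied windows and −0.06 without the highest barcode (exact p = 0.562, 0.0625, 0.188 and 0.0625). C9A minus other bases was −0.02 in the less active CTTA windows, and in the other second cores −0.25 in the less active elements and 0.07 as a mean over barcodes (exact p = 0.0938). The difference between these second cores was 0.04 as a median, 0.05 without tied windows and 0.09 without the highest barcode (exact p = 0.219, 0.0938 and 0.0625). The causes were not tested.

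All 600 changes were in their own series, so adding them from other series changed nothing. DNA and cDNA depth limits effects of low elements most. Subsets of windows, the split by second core, the flank reference and the split by level were chosen after seeing the data.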
